A study of Homo sapiens with 12 samples.

Results

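The genes described are 10 genes of the switch between epithelial and mesenchymal states, CDH1, CDH2, VIM, ZEB1, ZEB2, SNAI1, SNAI2, TWIST1, ESRP1 and GRHL2, out of 20503 genes that could be named on the arrays. They were chosen by name, but with earlier results of these data known, so their counts beside all genes are descriptive. The RefSeq transcripts of the array's annotation gave 16 probes for the 10 genes. The question was whether they differ between HA22T and PLC5, both human hepatocellular carcinoma cell lines, and whether knockdown of GALNT1 moved them in either line. GALNT1 encodes an enzyme that starts O-glycosylation of proteins by attaching GalNAc. Each line was transfected with a non-targeting siRNA (siControl) or with a pool of GALNT1 siRNAs (siGALNT1) at 10 nM for 48 h, and RNA from 3 samples of each of the 4 groups was hybridized to 12 single-color arrays. The siControl cells went through the same transfection as the knockdown cells, and both lines are established lines kept in culture. Nothing in the sources says that the 3 samples of a group came from separate cultures, so the p-values measure the spread between these samples.

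Epithelial cells hold together through E-cadherin, the product of CDH1, and mesenchymal cells carry N-cadherin (CDH2) and the intermediate filament vimentin (VIM). The transcription factors of the ZEB, SNAI and TWIST families bind E-box sequences and repress CDH1 and other epithelial genes. GRHL2 is an epithelial transcription factor that opposes them, and ESRP1 is an epithelial splicing regulator that shapes transcripts such as CD44 and FGFR2. Hepatocellular carcinoma lines differ in how far they keep epithelial and hepatocyte traits.

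Promoter sequence was looked up because ZEB and SNAI proteins recognise the E-box CACCTG, whose letters on the other strand are CAGGTG. RefSeq windows of GRCh38.p14 were held for 4 of the 10 genes, with 7 windows for ZEB1, 2 for CDH2 and 1 each for VIM and ZEB2, one for each annotated start site. The 250 bases before the start held the motif on either strand in 2 of the 11 windows, both of ZEB1, and in 17.5% of all 35116 windows of this length. The ZEB1 window with most matches is shown with the windows of VIM and ZEB2, which also had probes that differed between the lines below. They lie at chr10:31318966-31319215 on the plus strand, chr10:17227991-17228240 on the plus strand and chr2:144520120-144520369 on the minus strand, are written 5′ to 3′ and carry the motif in capitals. In the ZEB1 window the motifs begin 242 and 85 bases before the start.
ZEB1: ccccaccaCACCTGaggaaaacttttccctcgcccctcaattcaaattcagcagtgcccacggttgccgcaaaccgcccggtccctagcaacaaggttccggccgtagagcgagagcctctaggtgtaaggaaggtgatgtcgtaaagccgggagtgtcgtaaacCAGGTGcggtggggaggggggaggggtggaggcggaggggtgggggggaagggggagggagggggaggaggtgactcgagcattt
VIM: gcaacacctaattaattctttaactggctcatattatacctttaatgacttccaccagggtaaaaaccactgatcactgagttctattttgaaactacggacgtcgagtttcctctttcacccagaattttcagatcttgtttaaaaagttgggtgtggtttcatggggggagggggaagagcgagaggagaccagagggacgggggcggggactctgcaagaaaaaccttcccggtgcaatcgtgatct
ZEB2: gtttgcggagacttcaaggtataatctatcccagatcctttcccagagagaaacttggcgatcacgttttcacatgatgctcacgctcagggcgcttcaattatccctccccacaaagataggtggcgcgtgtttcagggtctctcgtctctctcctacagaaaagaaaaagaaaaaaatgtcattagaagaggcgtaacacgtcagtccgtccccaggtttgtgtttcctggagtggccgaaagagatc
A match is a run of letters and no evidence of binding, and the windows of VIM and ZEB2 lack only these letters.

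Each signal is a log2 intensity from which the log2 of the array's own 75th percentile was subtracted, so a value of 0 is the signal of that percentile. They are compared for one probe across arrays and never between probes. The arrays had 36679 to 48873 of 58717 spots well above background, 0 saturated spots and correlations of 0.968 to 0.988 between replicates. One slide held the 6 arrays of HA22T together with both replicate 1 arrays of PLC5, and a second slide held the 4 that remained of PLC5. The brighter GALNT1 probe lay at 0.75 to 1.32 in HA22T siControl against -5.55 to -3.15 with siGALNT1, and at 0.37 to 0.87 in PLC5 siControl against -3.92 to -1.93 with siGALNT1, so the target was lower on every knockdown array (adjusted p = 0.0708 and 1.00 from limma). The dimmer GALNT1 probe passed the threshold in HA22T (difference -4.75, adjusted p = 0.0305 from limma).

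Markers of hepatocytes were measured beside these genes because both lines are labelled as liver cancer. In HA22T 11 of 12 hepatocyte markers were lower than in PLC5 and none was higher, with a median log2 difference of -5.36. Their summed signal, as a multiple of the 75th percentile, was 2.40 to 2.96 in HA22T siControl and 113 to 185 in PLC5 siControl. The plasma protein genes TF (-9.62), APOB (-9.55) and AMBP (-8.47) had the largest differences on the log2 scale. APOH was not well above background on any HA22T siControl array (at least 35.5-fold higher in PLC5, counted through its PLC5 arrays alone). Of 12 markers, 5 were well above background on all HA22T siControl arrays and 12 on all PLC5 siControl arrays. Of 6 fibroblast markers 2 were bright enough to be counted, and LUM, which encodes the matrix proteoglycan lumican, was higher in HA22T by 6.12 (adjusted p = 3.53e-06 from limma). The other, the proteoglycan gene DCN, differed by -0.36 and missed the threshold (adjusted p = 0.468 from limma). The summed signal of the fibroblast markers was 1.02 to 1.38 in HA22T siControl and 0.103 to 0.155 in PLC5 siControl. Leukocyte markers summed to 24.3 to 45.7 and 28.7 to 46.0, and endothelial markers to 0.493 to 0.671 and 4.57 to 5.92, in the same order of lines. Such sums are weighted to the brightest probes, so alike sums do not mean alike markers. Of 5 counted leukocyte markers 2 were higher and 1 lower in HA22T, and of 3 counted endothelial markers 1 was lower. Over all counted genes 26.6% were called. The part of these marker differences in the results below was not tested.

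Among the 10 genes, those that differed between the lines were mesenchymal genes and transcription factors. With siControl, VIM, TWIST1 and ZEB1 were higher in HA22T, by 46.6-fold, 20.0-fold and 4.02-fold, and no member was lower by the test. That is 3 of 8 members bright enough to be counted, where 26.6% of all 17417 counted genes were called and 14.2% of all were called higher in HA22T. Counting any probe of a gene, 5 of 9 members were called against 30.4% of all genes, with CDH2 and ZEB2 as the additions. The ZEB2 call came from a probe that was counted through its HA22T arrays alone. The median log2 difference was 1.16 over the counted members and 0.10 over all counted genes. Of 13 counted probes of the 10 genes 7 were called, that ZEB2 probe among them, where 22% of all 38011 counted probes were. An unadjusted p of limma below 0.05 was reached by 5 of the 8 counted members. The share over genes was not counted for this p, and over all counted probes it was 33%. To be counted, a probe had to exceed background clearly on 3 or more of the 6 arrays compared, and the probe used for a gene was the brightest that had a value in each of the groups.

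**Figure D1:**
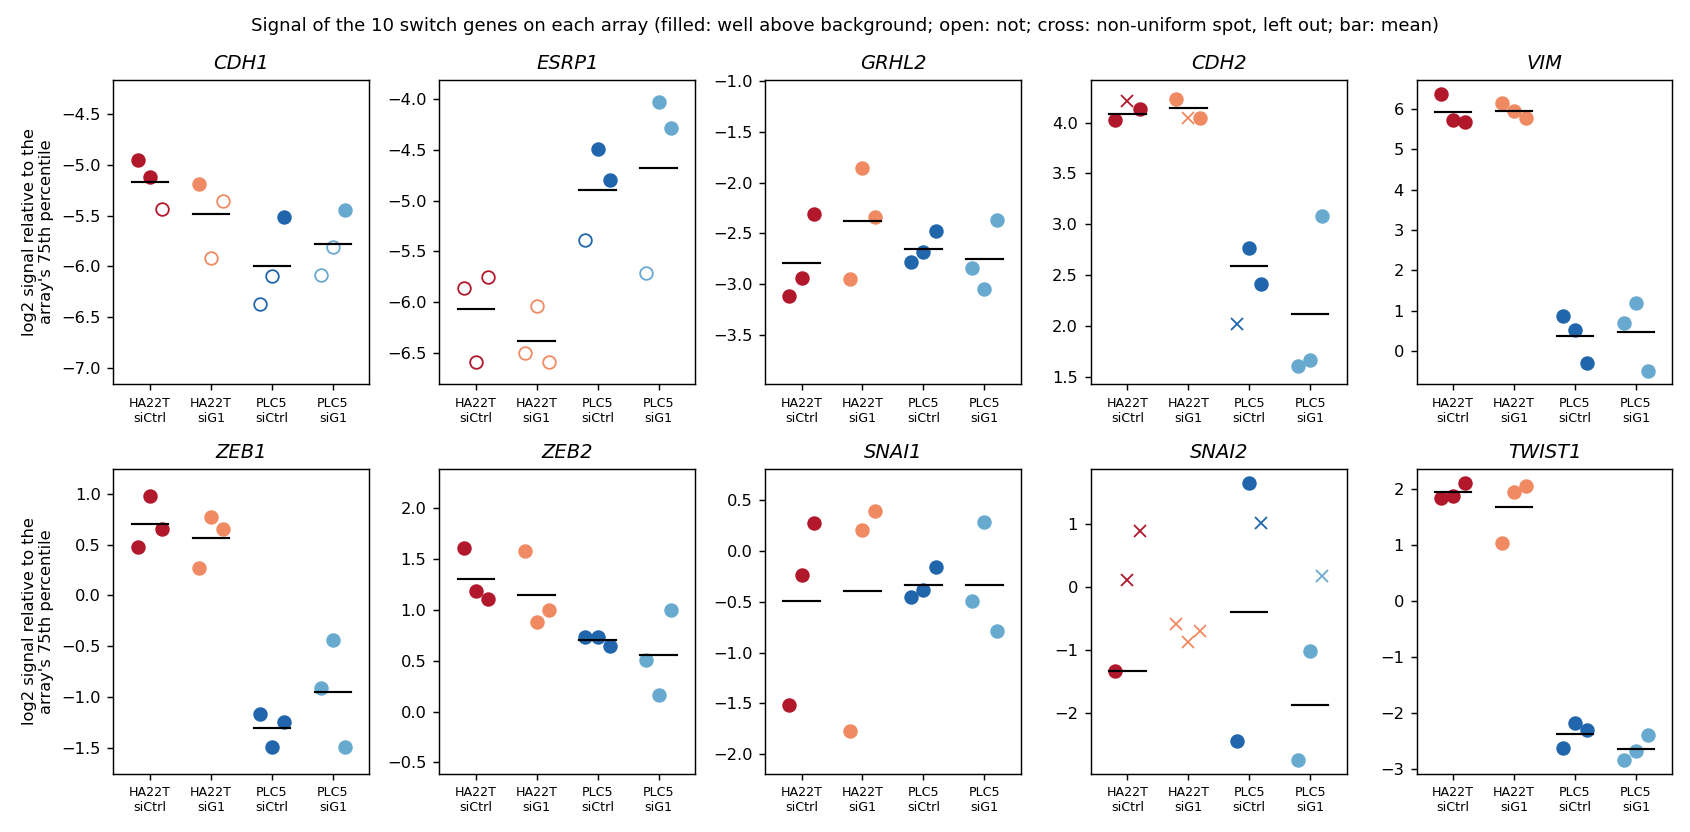
Signal of the brightest probe of each of the 10 genes on every array, as log2 relative to the array's 75th percentile (vertical axes, one scale per gene), for HA22T and PLC5 with siControl (siCtrl) or siGALNT1 (siG1). Filled points were well above background, open points were not, crosses are non-uniform spots left out of the fit and black bars are means. VIM, TWIST1 and ZEB1 lie apart between the lines on all 12 arrays, and CDH1 is near background in all 4 groups.

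Vimentin gave the largest difference among the members read from their brightest probe. VIM lay at 6.37, 5.72 and 5.68 on the HA22T siControl arrays and at 0.88, 0.54 and -0.28 on the PLC5 siControl arrays. Every HA22T array was above every PLC5 array, the lowest of HA22T being far above the highest of PLC5. The log2 difference was 5.54 (standard error 0.43, 95% interval 4.59 to 6.50, adjusted p = 4.54e-06 from limma), and it was 5.04 within the slide that both lines share, with 3 arrays against 1.

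TWIST1 encodes a basic helix-loop-helix factor of mesoderm. Its brighter probe lay at 1.84, 1.88 and 2.11 in HA22T siControl and at -2.62, -2.19 and -2.31 in PLC5 siControl. The groups were far apart, and the replicates of each lay close together. The log2 difference was 4.32 (standard error 0.30, adjusted p = 1.93e-06 from limma). The dimmer probe lay at -2.21, -2.01 and -1.71 against -3.40, -4.75 and -4.71, a log2 difference of 2.31 (adjusted p = 0.00185 from limma). Both TWIST1 probes were higher in HA22T, but within the shared slide the brighter one differed by 4.57 and the dimmer one by 1.42.

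ZEB1 and ZEB2 encode zinc finger repressors of the same family. The brighter ZEB1 probe lay at 0.48, 0.98 and 0.65 in HA22T siControl and at -1.17, -1.49 and -1.24 in PLC5 siControl. The groups did not overlap, and the log2 difference was 2.01 (standard error 0.30, adjusted p = 5.25e-04 from limma). The other ZEB1 probe gave 2.33 (adjusted p = 1.76e-04 from limma). Within the shared slide the values were 1.88 and 2.58.

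The probes of ZEB2 disagreed. The brightest lay at 1.61, 1.19 and 1.11 in HA22T siControl and at 0.73, 0.74 and 0.65 in PLC5 siControl, so that all HA22T arrays were above all PLC5 arrays, but its log2 difference of 0.60 missed the threshold (standard error 0.29, adjusted p = 0.180 from limma). A second probe of the same transcript lay at -0.27, -0.53 and -1.20 in HA22T siControl. In PLC5 siControl it was not well above background on any array, with measured values of -6.65, -7.58 and -6.73. This probe was at least 28.1-fold brighter in HA22T, a bound set by the lowest signal still well above background on the PLC5 arrays. A probe brighter than such a signal can still fail to be well above background, so this and the other bounds are approximate. The second ZEB2 probe was counted through its HA22T arrays alone, and limma called it from PLC5 values that could not be told from background. One more probe, on a non-coding transcript of ZEB2, was well above background on 2 of 3 HA22T siControl arrays and on no PLC5 array (at least 2.70-fold), and it was too dim to be tested. Which ZEB2 transcripts each probe detects in these cells was not tested.

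Cadherins were less simple than the filament and factor genes. The brightest CDH2 probe had a non-uniform spot, left out of the fit, on 1 siControl array of each line. The remaining arrays lay at 4.03 and 4.14 in HA22T siControl and at 2.77 and 2.41 in PLC5 siControl, a log2 difference of 1.49 that missed the threshold (standard error 0.51, adjusted p = 0.0726 from limma, n = 2 and 2, and exact permutation p = 0.333, the smallest for that number). The second CDH2 probe had all its arrays, at 2.57, 2.32 and 2.31 against 0.05, -0.28 and -0.44. Here HA22T was clearly apart from PLC5, with a log2 difference of 2.62 (standard error 0.24, adjusted p = 1.50e-05 from limma). With the non-uniform spots kept, the brightest probe gave 1.73 (adjusted p = 0.00642 from limma).

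CDH1 was close to background in both lines. It lay at -4.95, -5.12 and -5.43 in HA22T siControl, where 2 of 3 arrays were well above background, and at -6.37, -6.10 and -5.52 in PLC5 siControl, where 1 of 3 was. All HA22T values were above all PLC5 values, by a mean of 0.83 (standard error 0.31, 95% interval 0.14 to 1.51), and this missed the threshold (adjusted p = 0.0833 from limma). With the slide as a block the difference was 1.17 (adjusted p = 0.0391 from limma), and with each array scaled on its median it was 0.93 (adjusted p = 0.0432 from limma). The measured CDH1 values were no lower in HA22T, the line with the higher VIM, ZEB1 and TWIST1. So near background, this single probe cannot show whether the CDH1 transcript differed between the lines.

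The epithelial regulators ESRP1 and GRHL2 were dim as well. ESRP1 lay at -5.86, -6.59 and -5.76 in HA22T siControl, with 0 of 3 arrays well above background, and at -5.39, -4.50 and -4.80 in PLC5 siControl, well above background on 2 of 3. All PLC5 values were higher, but the probe was too dim to be counted in the test. A ZEB2 probe at -4.46 on HA22T siControl replicate 3, above the ESRP1 mean of -4.89 in PLC5 siControl, was not well above background. No fold is therefore given for ESRP1. The PLC5 arrays well above background were those of the second slide in both siControl and siGALNT1, and within the shared slide the difference was -0.68. The brighter GRHL2 probe lay at -3.12, -2.94 and -2.31 against -2.78, -2.69 and -2.48, so the lines overlapped (log2 difference -0.14, 95% interval -0.87 to 0.59, adjusted p = 0.817 from limma). The direction of that small difference turned with normexp correction, quantile normalization and the mean of both probes.

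SNAI1 and SNAI2, the Snail and Slug repressors, gave no difference that could be told from their spread. SNAI1 lay at -1.52, -0.23 and 0.28 in HA22T siControl and at -0.45, -0.39 and -0.16 in PLC5 siControl. The lines overlapped, and the HA22T replicates were spread more widely than those of PLC5, with replicate 1 lowest (log2 difference -0.16, 95% interval -1.46 to 1.15, adjusted p = 0.888 from limma). The single SNAI2 probe was non-uniform on 2 of 3 HA22T siControl arrays, on 3 of 3 HA22T siGALNT1 arrays and on 1 array of each PLC5 group. The spots left gave -1.33 in HA22T siControl and -2.45 and 1.65 in PLC5 siControl, so SNAI2 was given no call.

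**Figure D2:**
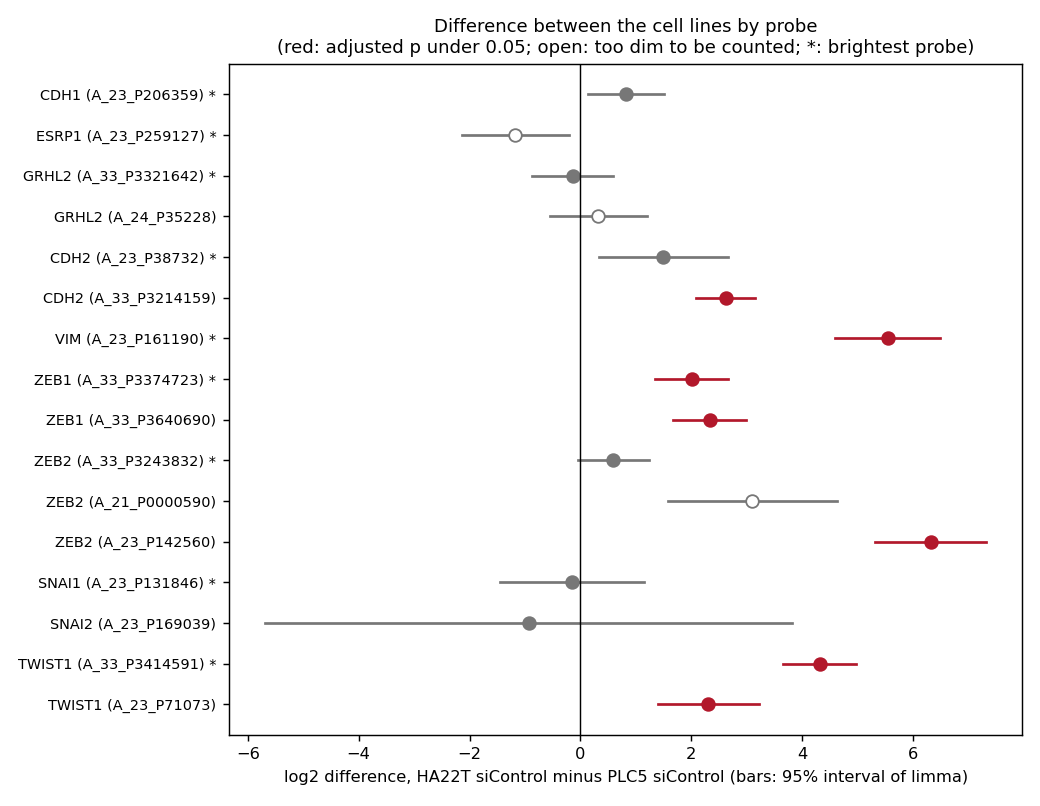
Log2 difference between HA22T siControl and PLC5 siControl (horizontal axis) for each of the 16 probes of the 10 genes, with the 95% interval of limma as bars. Red marks an adjusted p under 0.05, open points are probes too dim to be counted and a star marks the brightest probe. The red ZEB2 point at 6.32 rests on PLC5 values that could not be told from background, and its size is given in the text as at least 28.1-fold.

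Of the 7 counted members with a value on all 6 siControl arrays, 5 did not overlap between the lines, where 47.5% of all such genes did not. With 3 arrays against 3 the exact two-sided permutation test cannot give a p below 0.1, and VIM, TWIST1, ZEB1, ZEB2 and CDH1 each gave that value. For CDH1 it came from values near background. The VIM, TWIST1 and ZEB1 calls were kept in each alternative analysis that was run, each array left out in turn included.

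Profiles most like those of VIM and CDH1 were sought among 15654 genes over the 12 arrays, by the root mean square difference of log2 values centred on their mean. SLCO3A1, an organic anion transporter, was nearest to VIM at 0.388, followed by CDC42EP3 at 0.414 and PCDHGA8 at 0.449. Their differences between the lines were 5.42, 5.89 and 5.37. BAZ2B at 0.159, NFAT5 at 0.189 and PGLYRP1 at 0.194 were nearest to CDH1, with differences of 0.87, 0.93 and 0.58. The 12 points of such a profile share 2 cell lines, and a gene that differs alike between the lines is near by this measure.

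The wider programme was read from 6 lists with 129 genes, of which 111 were bright enough to be counted between the lines. The lists too were chosen with earlier results of these data known. In these lists 30 genes were higher and 26 lower in HA22T. Over all counted genes 14.2% were called higher and 12.4% lower in HA22T, and the counts of each list are to be read beside these shares.

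Of 31 counted genes of the mesenchymal programme, 18 were higher and 3 lower in HA22T, with a median log2 difference of 1.83. The highest were the collagen receptor DDR2 (5.76, adjusted p = 9.37e-07), the membrane protein gene EMP3 (5.58, adjusted p = 8.93e-06), the collagen crosslinking enzyme LOXL2 (5.58, adjusted p = 8.62e-06) and the matricellular CCN1 (5.39, adjusted p = 4.42e-05), all from limma. FN1, which encodes fibronectin, went the other way at -3.60 (adjusted p = 2.15e-06 from limma). The matrix protein gene TGFBI (-2.37) and the actin-binding TAGLN (-1.02) were lower in HA22T as well. Fibronectin is also secreted by hepatocytes, and the hepatocyte markers were lower in HA22T, a part in this result that was not tested.

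Among 13 counted transcription factors of the transition other than the members, 3 were higher and 4 lower in HA22T, and the median was -0.05. ETS1 (3.44), PRRX1 (2.65) and TCF3 (1.34) were higher. The forkhead factor FOXQ1 (-3.55), SOX9 (-3.22), a factor of biliary and progenitor cells, the homeobox factor GSC (-2.44) and TCF4 (-1.67) were lower. All 7 had an adjusted p of 0.0322 or lower from limma.

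Of 14 counted epithelial transcription factors, 6 were lower and 1 was higher in HA22T, with a median of -0.68. FOXA2, a pioneer factor of liver and gut, differed by -6.85 (adjusted p = 1.19e-06 from limma), and 1 of its 3 HA22T siControl arrays was well above background. The epithelial ETS factor ELF3 differed by -6.30 (adjusted p = 4.59e-06 from limma) and its relative EHF by -2.15. KLF4 was higher in HA22T by 2.27 (adjusted p = 2.01e-04 from limma).

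Splicing regulators and ESRP targets had 3 genes higher and 1 lower of 13 counted, with a median of 0.40. ESRP2, the paralog of ESRP1, was bright enough to be tested and was lower in HA22T by a log2 difference of -3.01 (adjusted p = 7.39e-06 from limma). CD44, whose exons the ESRP proteins regulate, was higher by 3.08, and the splicing factors MBNL1 and RBFOX2 were higher by 2.75 and 0.85. The arrays measure the level of these genes and not their splicing.

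In the epithelial programme 8 of 25 counted genes were lower and 2 higher in HA22T, with a median of -0.33. The desmosomal DSP was not well above background on any HA22T siControl array (at least 40.4-fold higher in PLC5, counted through its PLC5 arrays alone). The protease inhibitor gene SPINT2 differed by -6.11, the tricellular junction gene LSR by -4.81 and the claudin gene CLDN7 by -3.67. The desmosomal PKP3 was higher in HA22T by 3.97 (adjusted p = 5.80e-06 from limma). EPCAM, RAB25, GALNT3 and TMC5 were too dim to be counted.

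Cadherin and catenin partners split, with 3 of 15 counted genes higher and 4 lower in HA22T and a median of -0.07. JUP, which encodes plakoglobin, differed by -3.88 (adjusted p = 6.97e-06 from limma) and CTNND1, which encodes p120 catenin, by -1.07. CDH17, a cadherin of liver and intestine, was at least 12.9-fold higher in PLC5, and CDH15 differed by -1.51. CDH3, which encodes P-cadherin, was higher in HA22T by 1.94, the focal adhesion gene VCL by 1.49 and NECTIN3 by 0.98.

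**Figure D3:**
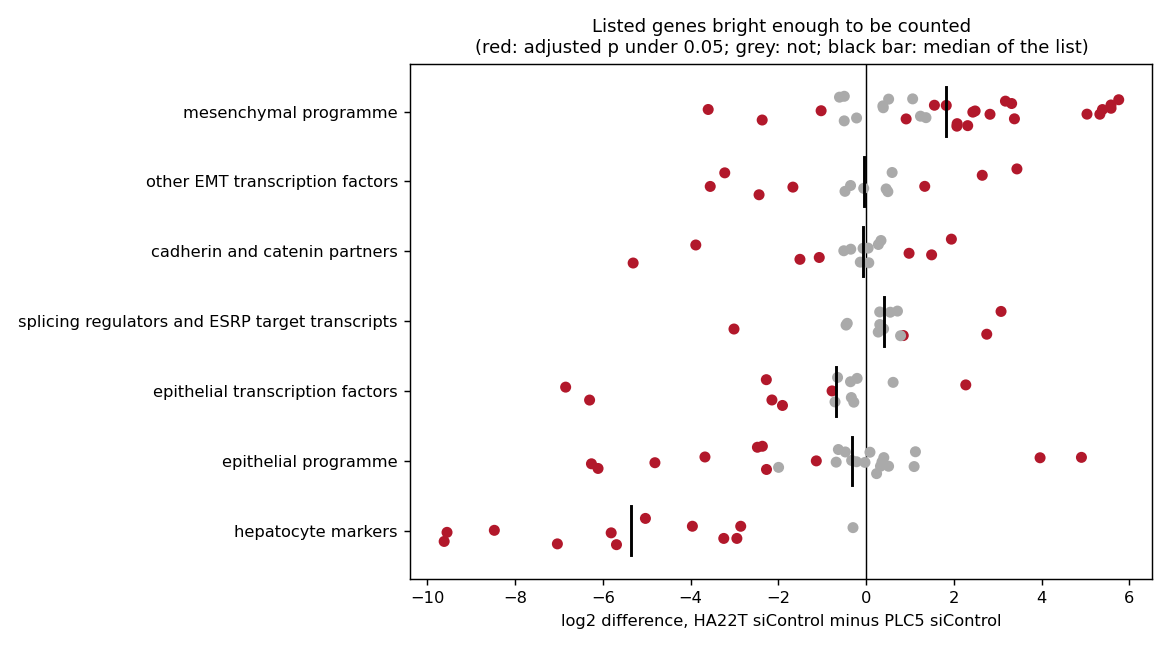
Log2 difference between HA22T siControl and PLC5 siControl (horizontal axis) of each counted gene of the 6 lists and of the hepatocyte markers. Red points had an adjusted p under 0.05, grey points did not, black bars are list medians, and the scatter of points within a row has no meaning. The mesenchymal programme has 18 red points to the right of 0 and 3 to the left, and hepatocyte markers have 11 to the left and none to the right.

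Knockdown of GALNT1 moved none of the 8 counted members past the threshold in HA22T. The brighter probe of GALNT1, the target, missed it as well (difference -5.10, adjusted p = 0.0708 from limma), while the dimmer passed. A miss at this threshold therefore does not show that a gene was unmoved. ESRP1 was too dim to be counted, and SNAI2 had no uniform spot on any HA22T siGALNT1 array. By limma 0 of 8 counted members had an adjusted p below 0.05, 0 had an unadjusted p below 0.05, and the lowest unadjusted p was 0.245. Over all genes 0% were called (0 of 16967), over all probes 0.00275% were, and 2.99% of probes had an unadjusted p below 0.05. The differences of the counted members ran from -0.32 to 0.41 on the log2 scale, with a median of -0.06 beside -0.10 over all genes.

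With siGALNT1, VIM lay at 6.13, 5.95 and 5.77 in HA22T and the siControl arrays lay around them, so the difference was 0.03 with a 95% interval of -0.93 to 0.98. ZEB1 lay at 0.27, 0.77 and 0.66 (difference -0.14, 95% interval -0.80 to 0.52). TWIST1 lay at 1.04, 1.95 and 2.06, with 1 array below all siControl arrays (difference -0.26, 95% interval -0.92 to 0.39). The other ZEB1 probe differed by -0.40 (adjusted p = 1.00 from limma) and the dimmer TWIST1 probe by -0.38 (adjusted p = 1.00 from limma), and each was lower with siGALNT1 in 3 of 3 arrays set against the siControl array of the same replicate number. The brighter probes of ZEB1 and TWIST1 were each lower in 2 of 3 such pairs, and VIM in 1 of 3. Each of these probes overlapped between siGALNT1 and siControl when the arrays were not paired, and none passed the threshold. The share of all probes lower in 3 of 3 such pairs was not counted, so no siRNA effect is read from the pairs. The median over all counted genes in this comparison was itself -0.10.

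The brightest ZEB2 probe lay at 1.58, 0.88 and 1.00 with siGALNT1 in HA22T (difference -0.15, 95% interval -0.79 to 0.49). It was lower in 3 of 3 pairs, a count again without a share over all probes. The second CDH2 probe lay at 1.97, 2.07 and 2.42 (difference -0.25, 95% interval -0.78 to 0.28), while the brightest gave 0.06 from 2 arrays against 2. CDH1 lay at -5.19, -5.92 and -5.36 (difference -0.32, 95% interval -1.003 to 0.363), and 1 of the 3 arrays was well above background. All 3 genes overlapped their siControl values.

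SNAI1 lay at -1.78, 0.21 and 0.39 with siGALNT1 in HA22T, and replicate 1 was again the lowest, as with siControl (difference 0.10, 95% interval -1.20 to 1.40). Taken by replicate number, its 3 differences ran from -0.26 to 0.44. The intervals given for siGALNT1 are from the model without pairing, so they hold spread that arrays of one replicate number share. The brighter GRHL2 probe lay at -2.95, -1.86 and -2.34 (difference 0.41, 95% interval -0.32 to 1.14). Its dimmer probe differed by 0.86 but was well above background on 1 of 6 arrays. ESRP1 was not well above background on any of the 6 HA22T arrays.

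In PLC5 no counted member passed the threshold either. The brighter GALNT1 probe missed it here too, at a difference of -3.72, so a miss again does not show an unmoved gene. CDH1 was too dim to be counted, and SNAI2, with 2 uniform spots in each group, was given no call. Again 0 of 8 counted members had an adjusted p below 0.05 and 0 an unadjusted p below 0.05, the lowest unadjusted p being 0.263. Over all genes 0% were called (0 of 17316), and 1.33% of probes had an unadjusted p below 0.05. The differences ran from -0.47 to 0.35, with a median of -0.05 beside 0.04 over all genes.

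VIM lay at 0.70, 1.19 and -0.47 with siGALNT1 in PLC5 (difference 0.09, 95% interval -0.86 to 1.04). ZEB1 lay at -0.91, -0.44 and -1.49 (difference 0.35, 95% interval -0.30 to 1.01). TWIST1 lay at -2.84, -2.69 and -2.39 (difference -0.27, 95% interval -0.92 to 0.39). Each range took in values of the siControl arrays, and replicate 3 of VIM was the lowest with both siRNAs.

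The brightest ZEB2 probe lay at 0.51, 0.16 and 1.00 in PLC5 with siGALNT1 (difference -0.15, 95% interval -0.79 to 0.49), and the second was not well above background on any array. CDH2 had the largest difference of the counted members, -0.47, with its brightest probe at 1.61, 1.67 and 3.08 (95% interval -1.53 to 0.59). Its second probe differed by -0.04 (95% interval -0.57 to 0.49), so the value of the brightest probe was not shared. CDH1 lay at -6.09, -5.81 and -5.45 and was too dim to be counted (difference 0.22).

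ESRP1 lay at -5.72, -4.03 and -4.29 in PLC5 with siGALNT1 (difference 0.22, 95% interval -0.75 to 1.19). SNAI1 lay at -0.50, 0.29 and -0.79 (difference 0.003, 95% interval -1.30 to 1.30). GRHL2 lay at -2.84, -3.05 and -2.37 (difference -0.10, 95% interval -0.84 to 0.63). None of the 7 members counted on all 6 arrays lay apart from siControl in PLC5 or in HA22T, where 3.62% and 8.89% of such genes did.

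**Figure D4:**
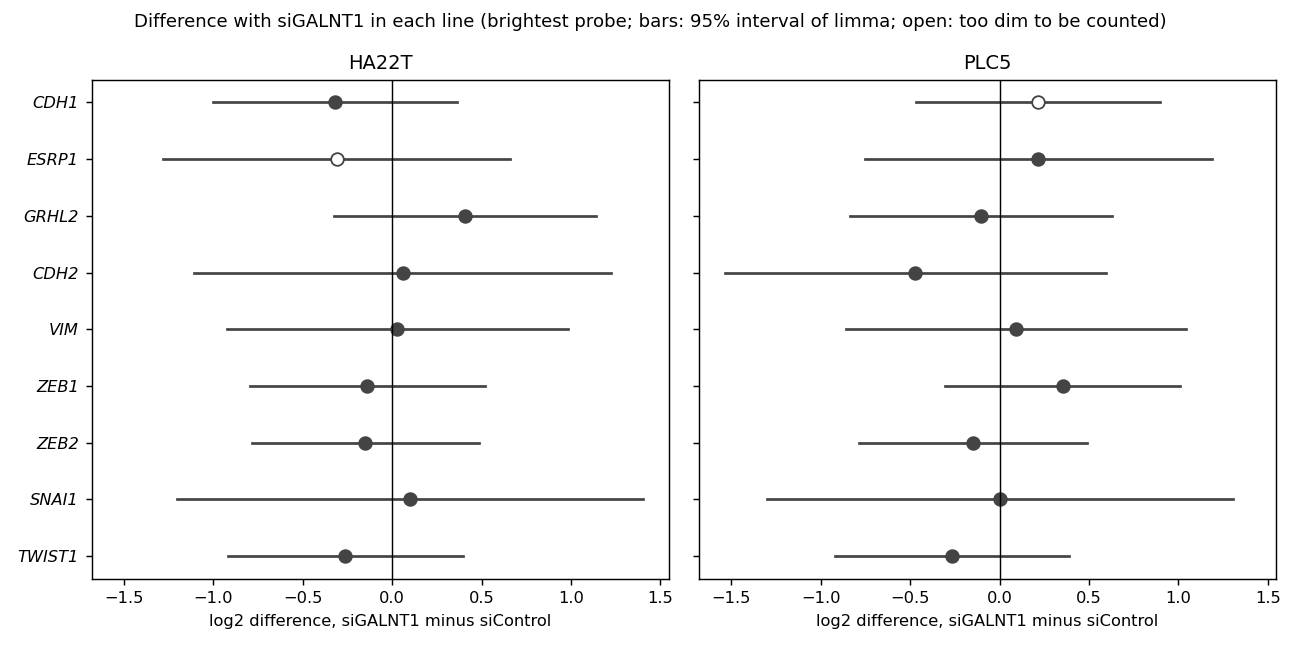
Log2 difference between siGALNT1 and siControl (horizontal axes) in HA22T and in PLC5 for the brightest probe of 9 genes, with the 95% interval of limma as bars and open points for probes too dim to be counted. Every interval spans 0, and those of SNAI1 reach beyond 1 in either direction.

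The effect of the siRNA was also compared between the lines. For the 9 members counted, the effect in HA22T minus that in PLC5 ran from -0.54 for CDH1 to 0.53 for CDH2, 0 had an adjusted or unadjusted p below 0.05, and the lowest unadjusted p was 0.248. Over all genes 0% were called (0 of 17893) and 2.43% of probes had an unadjusted p below 0.05. The 95% interval of this difference was -1.41 to 1.28 for VIM and -1.42 to 0.44 for ZEB1.

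The 3 genes called between the lines with siControl also lay apart with siGALNT1. The share of all genes that did so with siGALNT1 was not counted, and the lines were not tested there. VIM spanned 5.77 to 6.13 in HA22T and -0.47 to 1.19 in PLC5, TWIST1 spanned 1.04 to 2.06 and -2.84 to -2.39, and ZEB1 spanned 0.27 to 0.77 and -1.49 to -0.44. For each of these genes the order of the group means put both HA22T groups above both PLC5 groups, and the neighbours within a line did not differ beyond their spread.

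No listed gene passed the threshold with siGALNT1 either, 0 of 107 counted in HA22T and 0 of 111 in PLC5 by limma, with 2 and 1 at an unadjusted p below 0.05. In HA22T the 3 listed genes with the smallest unadjusted p of limma were PPL, which encodes the desmosomal protein periplakin (difference 1.41), GSC (0.76) and the protease inhibitor gene SPINT1 (-0.57), and each missed the threshold with an adjusted p of 1.00 from limma. In PLC5 the genes with the smallest unadjusted p included S100A4, a calcium-binding protein gene of motile cells (difference -1.65, from 2 arrays against 1 after non-uniform spots were dropped) and TWIST2 (-0.55), and these missed it likewise with an adjusted p of 1.00 from limma.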

How the data were processed

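RNA of HA22T and PLC5 cells with siControl or siGALNT1 was measured on 12 Agilent arrays, 3 per group. The authors took intensities from the scanned images with Agilent Feature Extraction 10.5.1.1. The intensity values that they deposited are background-subtracted processed signals with flags for each spot. They also deposited a table of log2 values, which was used as an alternative. Here non-uniform outliers and control spots were dropped, the 75th percentile of an array was subtracted from its signals on the log2 scale, and repeated spots were averaged to 50599 probes. Of these, 28174 were named through RefSeq transcripts in a table of GRCh38.p14, and older annotation can mislabel a probe.

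One model of the 4 groups, without covariates, was fitted by lmFit and eBayes (limma 3.58.1, R 4.3.3). Benjamini-Hochberg adjustment ran over probes clearly above background on 3 or more of the 6 arrays compared, with 0.05 as the threshold. Exact permutation tests were two-sided. A probe not above background in a group was given a bound, from the lowest signal of any probe well above background on those arrays. Such bounds are approximate, because some probes brighter than that signal were not well above background. The number of arrays limits the precision. The fit of the difference between the lines was tested on simulated data without slide or replicate effects. The siRNA comparisons were not tested in this way.

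The 10 genes and the lists were chosen with earlier results of these data known. Besides the 10 genes, GALNT1, the hepatocyte and other cell type markers and the genes of likest profile, the genes named were up to 4 per list and direction with the largest called difference between the lines, and the 3 with the smallest p in each siRNA comparison. Some genes that this rule names are not reported here. EPCAM, RAB25, GALNT3 and TMC5 were named after their values were seen.

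Deviations from the group means, set against each other for arrays of one replicate number in HA22T, correlated at 0.526, 0.264 and 0.338, so the numbers were taken to pair these arrays, from the values alone. Alternatives were normexp (offset 50), quantile and median scaling, the deposited table, other filters, the slide or replicate number as a block, other priors, each comparison fitted alone, the methods' t-test, the mean over probes, and each array left out. Any probe of a gene, probes with a value on all 12 arrays and the shared slide alone were added after seeing the data.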

Additional observations from a re-analysis of the deposited data

How the results depend on the processing

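The number of members called between the lines with siControl was 3, and it was 5 with any probe of a gene, 5 with a gene's probes averaged and 5 with median scaling, which moved the median of all counted probes from 0.04 to 0.15. CDH2 and ZEB2 were the additions in the first pair of settings (ZEB2 at 3.34 with its probes averaged), and CDH1 and CDH2 in the last. In both settings the ZEB2 call used PLC5 signals that could not be told from background. CDH2 also passed with eBayes with a trend, normexp correction, the deposited table, the non-uniform spots kept or only the groups compared (adjusted p = 0.0217, 0.0430, 0.00475, 0.00642 and 0.0386 from limma). Leaving out each array in turn gave 3 to 4 members, with 4 without PLC5 siGALNT1 replicate 3 (CDH2, adjusted p = 0.0122 from limma), and 46 to 59 listed genes. The listed genes called were 56, 37 when all 6 arrays had to be above background, where fewer probes were tested, and 31 on the shared slide, where fewer arrays were compared. With the replicate block 3 members and 58 listed genes were called between the lines against 3 and 56 without it, and 0 of either with siGALNT1. The siRNA comparisons gave 0 calls among members and listed genes in each alternative that was run on them, the methods' t-test included.

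Only members that missed the threshold turned direction, and the cause was not tested. CDH2 with siGALNT1 in HA22T became -0.250 (probes with all 12 arrays), -0.0308 (deposited table), -0.147 (mean of probes), -0.0293 (median scaling), -0.0160 (non-uniform spots kept) and -0.0186 (quantile), in PLC5 0.169 (mean of probes), and between the lines -0.213 (probes with all 12 arrays) and -0.317 (mean of probes). With normexp correction CDH1 in HA22T became 0.0945, VIM -0.0276 and ZEB1 0.162, and VIM was -0.0336 with median scaling. The difference of siRNA effects became -0.0197 (deposited table), -0.0355 (mean of probes), -0.0685 (median scaling) and -0.0454 (normexp) for TWIST1 and 0.0749 (normexp) and 0.119 (quantile) for ZEB2. GRHL2 between the lines became 0.0920 (mean of probes), 0.0570 (normexp) and 0.0226 (quantile), and in PLC5 0.00734 (mean of probes) and 0.0218 (normexp). SNAI2 between the lines became 0.525 with the slide as a block or the replicate block and 1.12 on the shared slide.

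With single arrays left out, the siRNA differences in HA22T ran from -0.0371 to 0.154 for CDH2, -0.0941 to 0.253 for VIM, -0.251 to 0.0110 for ZEB1, -0.362 to 0.00505 for ZEB2, -0.416 to 0.790 for SNAI1 and -0.448 to 0.0595 for TWIST1. In PLC5 they ran from -0.267 to 0.563 for VIM, -0.372 to 0.0474 for ZEB2, -0.308 to 0.231 for SNAI1, -3.53 to 0.572 for SNAI2, -0.107 to 0.737 for ESRP1 and -0.295 to 0.0432 for GRHL2. The difference of effects ran from -0.535 to 0.295 for VIM, -0.212 to 0.222 for ZEB2, -0.418 to 0.787 for SNAI1 and -0.181 to 0.327 for TWIST1. Between the lines SNAI1 ran from -0.540 to 0.358, SNAI2 from -2.98 to 1.12 and GRHL2 from -0.378 to 0.0249. CDH1 and ESRP1 lay near background, which limits their values.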
